A study of Mus musculus with 2 samples.

Results

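The genes described here are 26 genes of cholesterol and fatty acid synthesis, taken from the 32285 genes of the count tables by matching their symbols. They fall into 4 roles: 3 genes of regulation and sterol transport, 7 enzymes of the mevalonate and isoprenoid steps, 11 enzymes from squalene to cholesterol, and 5 enzymes of fatty acid synthesis and desaturation. They were followed in embryonic stem (ES) cells of C3H/HeSn-Paf/J mice, an inbred strain, measured by droplet single-cell RNA sequencing. The cells came from 9 lines, 3 of XX, 3 of XO and 3 of XY embryos, cultured in serum with leukaemia inhibitory factor on irradiated mouse fibroblast feeders, and all 9 were pooled in each library. One library was made at an early passage (time 1) and 1 after 10 more passages (time 2). No map from single cells to their line was used, so each library counts as 1 sample, and a shift in the share of a line cannot be told apart from a change within lines. With 1 library per time point there is no replicate, no test was made, and every interval below is an exact Poisson 95% interval that covers counting error only.

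Cells make cholesterol from acetyl-CoA through mevalonate, isoprenoids, squalene and lanosterol. The genes of this route share a feedback control. When membrane sterol is low, SCAP carries the transcription factor SREBP-2, the product of Srebf2, from the endoplasmic reticulum to the Golgi, where it is cut and freed to enter the nucleus; when sterol is high, INSIG proteins hold SCAP back. Serum supplies cholesterol in lipoproteins, which cells can take up.

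After filtering, 23210 cells remained at time 1 and 25483 at time 2, with medians of 44366 and 50386 unique molecular identifiers (UMIs, each standing for 1 captured RNA molecule). The libraries shared 157 cell barcodes. Clusters were made on autosomal genes, without the 26 genes and other listed lipid genes, and are called by their leading gene. The clusters named pluripotent stem cell-like held 9372 cells at time 1 and 20846 at time 2. All 12 pluripotent stem cell markers were at or above 1 CPM (counts-per-million, here of UMIs) there in both libraries. The same held in every other cluster, so this does not set the class apart. The 12 markers summed to 10976 and 7169 CPM in the class. They summed to 3750 and 2881 CPM in the fibroblast-like Mgp-led cluster, and to 8457 CPM in the unnamed Notch2-led cluster of time 1. The Notch2-led cluster held 5820 cells at time 1 and 32 at time 2, with no listed marker among its top 10 genes. Its median depth, 28804 UMIs over both libraries, was under the depth limit of the naming rule, which was set after the clusters were seen. No passage ratio was taken with this cluster alone added to the class. Different clusters hold most of the pluripotent stem cell-like class at each time: the Gm9-led cluster with 8037 of 9372 cells at time 1, and the Halr1-led and Nanos3-led clusters with 8912 and 8786 of 20846 cells at time 2. Markers of fibroblasts, the feeder cell type, summed to 49.9 CPM in these cells at time 1 and 37.4 CPM at time 2, with 4 of 8 at 1 CPM or above and none at 0. In the fibroblast-like Mgp-led cluster the same markers summed to 4704 and 3984 CPM.

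Promoter sequences are shown first for 5 of the genes. They were picked by how closely each gene followed the others from cell to cell, a result given below. Over all pluripotent stem cell-like cells, Msmo1, Hmgcs1, Cyp51 and Idi1 followed the others most closely among genes with a promoter sequence, and Ebp least. Each is the 250 bases before the RefSeq start of the gene on GRCm38.p6, written in the direction of the gene. RefSeq starts can differ from the GENCODE gene coordinates given below. For Msmo1, on the minus strand, the latter begin at chr8:64733792, inside the window shown. Capitals mark the CCAAT box on either strand (CCAAT or ATTGG) and the motif CACNCCAC, the inner part of the sterol regulatory element to which SREBP binds. Msmo1 is at chr8:64733579-64733828 (minus strand), Hmgcs1 at chr13:119690101-119690350 (plus strand), Cyp51 at chr5:4104698-4104947 (minus strand), Idi1 at chr13:8885356-8885605 (plus strand) and Ebp at chrX:8193513-8193762 (minus strand).
Msmo1: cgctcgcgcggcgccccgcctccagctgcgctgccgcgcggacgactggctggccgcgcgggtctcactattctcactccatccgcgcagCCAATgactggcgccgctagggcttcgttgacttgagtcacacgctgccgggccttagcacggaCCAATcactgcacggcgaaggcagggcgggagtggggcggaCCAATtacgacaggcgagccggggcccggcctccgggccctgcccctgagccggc
Hmgcs1: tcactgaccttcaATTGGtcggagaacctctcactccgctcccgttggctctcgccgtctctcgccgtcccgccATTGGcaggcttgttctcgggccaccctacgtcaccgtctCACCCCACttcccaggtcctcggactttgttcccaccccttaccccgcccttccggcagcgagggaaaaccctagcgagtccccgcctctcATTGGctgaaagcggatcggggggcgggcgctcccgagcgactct
Cyp51: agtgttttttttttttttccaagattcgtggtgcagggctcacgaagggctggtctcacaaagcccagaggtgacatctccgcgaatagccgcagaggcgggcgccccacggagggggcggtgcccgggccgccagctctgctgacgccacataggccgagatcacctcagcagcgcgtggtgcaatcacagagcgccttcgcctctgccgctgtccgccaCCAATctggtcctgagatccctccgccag
Idi1: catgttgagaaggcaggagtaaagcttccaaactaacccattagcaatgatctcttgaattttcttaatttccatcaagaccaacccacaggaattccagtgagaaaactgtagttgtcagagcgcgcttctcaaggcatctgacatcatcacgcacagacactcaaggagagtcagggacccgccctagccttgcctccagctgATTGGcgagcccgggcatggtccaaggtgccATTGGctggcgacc
Ebp: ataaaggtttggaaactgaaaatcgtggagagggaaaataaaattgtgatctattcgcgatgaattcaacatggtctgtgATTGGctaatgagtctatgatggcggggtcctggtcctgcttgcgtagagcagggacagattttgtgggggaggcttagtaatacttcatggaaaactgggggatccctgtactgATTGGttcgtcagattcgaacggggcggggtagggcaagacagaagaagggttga
The Msmo1 sequence holds 3 CCAAT boxes, which begin 160, 96 and 55 bases before the start. The Hmgcs1 sequence holds 3, all on the opposite strand, and the one CACNCCAC match of the 5 sequences, which begins 136 bases before the start.

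RefSeq promoters of 300 bases (250 before and 50 after the start) matched 20 of the 26 genes, some with several starts, giving 23 promoters. Sqle, Fdps, Fdft1, Stard4, Scd1 and Scd2 had no entry. A CCAAT box on either strand was found in 18 of 23 promoters, or 78.3%, against 37.4% of all 32851 promoters and 38.7% of the 7529 promoters of genes expressed here. By gene, 18 of 20 had one; the exceptions were Acaca and Acat2. The GC box GGGCGG was found in 78.3% of the 23, 35.7% of all and 66.6% of the expressed promoters, and the E-box CACGTG in 17.4%, 7.15% and 11.2%. The full sterol regulatory element, and a form of it with 1 free base, were found in 0 of the 23, against 0.0913% and 0.234% of all. TCACNCCAC was found in Hmgcs1 alone, 4.35% of the 23 against 1.24% of all. The shorter CACNCCAC, which every match of the longer forms also contains and which was added after the longer forms had been counted, was found in Hmgcs1, Insig1 and Acat2, 13% against 6.24%. These are matches of letters in a window of fixed length, and a promoter without a match may hold a site outside it or with other letters.

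In pluripotent stem cell-like cells, 3 of the 26 genes were lower after 10 passages by the limit used here, Insig1 and the X-linked Nsdhl and Ebp, and most of the others had ratios between that limit and 0. Summed over the 26 genes, the level was 1394 CPM at time 1 (1390 to 1397) and 1183 CPM at time 2 (1181 to 1185), a log2 ratio of -0.24. A gene was counted as lower or higher where the log2 ratio of CPM plus 1 reached 0.5 in size, provided that the gene reached 10 CPM in one of the libraries. Of the 24 members that met this minimum, 3 were lower and 0 were higher. Over all 7360 genes, 13.4% were lower and 8.36% higher, so the count of 3 is near the background. The shift below the limit was broader: 20 of 24 ratios were below 0, with a median of -0.32 against -0.03 for all genes. Hsd17b7 and Tm7sf2 were under the minimum.

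The 3 genes of regulation and transport summed to 126 CPM at time 1 and 84.7 CPM at time 2, a log2 ratio of -0.57. Insig1 (chr5:28071363-28078662, GRCm38), which encodes the sterol-sensing anchor of SCAP and is itself a target of SREBP-2, had the most negative ratio of the 26 genes. It was at 49.4 CPM at time 1 (48.8 to 50) and 27.2 CPM at time 2 (26.9 to 27.5), a log2 ratio of -0.84. Srebf2 was at 64.2 CPM and 49.2 CPM, a ratio of -0.38. Stard4, a carrier of cholesterol between membranes, was at 11.9 CPM and 8.3 CPM, a ratio of -0.48. Of the 3, Insig1 alone passed the limit.

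The 7 enzymes of the mevalonate and isoprenoid steps summed to 587 and 502 CPM, a log2 ratio of -0.22. Hmgcs1, which makes HMG-CoA, had the most negative ratio of these, with 103 CPM at time 1 and 77.1 CPM at time 2 (-0.41). The kinase Mvk followed with 20.2 and 15.7 CPM (-0.34), and Fdps, which makes farnesyl diphosphate, with 240 and 196 CPM (-0.29). Mvd, the decarboxylase that yields isopentenyl diphosphate, stood at -0.23, the isomerase Idi1 at -0.17 and the kinase Pmvk at -0.06. Acat2, the thiolase at the head of the route, was at 42.3 and 48 CPM, a ratio of 0.18, the only ratio of the 7 above 0, and at -0.11 over all filtered cells. It has a close copy, Acat3, and reads that match both may have been lost or split in counting, as may those of the paralogs Scd1 and Scd2.

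The 11 enzymes from squalene to cholesterol summed to 422 and 315 CPM, a log2 ratio of -0.42, and all 9 that met the minimum were below 0. Nsdhl (chrX:72918557-72958514), a sterol dehydrogenase that works in the removal of methyl groups, was at 29.4 CPM at time 1 (29 to 29.9) and 17.5 CPM at time 2 (17.2 to 17.7), a ratio of -0.72. Ebp (chrX:8185329-8193512), the sterol isomerase, was at 73.1 CPM (72.3 to 73.8) and 48.5 CPM (48.1 to 48.9), a ratio of -0.58. Both are X-linked, as is the set of 254 other X-linked genes whose median ratio was -0.50; the share of cells with a high X dosage, given below, was lower at time 2. Dhcr7, which makes cholesterol in the last step of one branch, was just short of the limit with 23.7 and 16.5 CPM (-0.50 after rounding). The other autosomal enzymes were Sqle, squalene epoxidase, at -0.48, Lss, lanosterol synthase, at -0.42, Msmo1, the methyl sterol oxidase, at -0.40, the desaturase Sc5d at -0.39, Fdft1, squalene synthase, at -0.28 and Cyp51, the lanosterol demethylase, at -0.17. Of those under the minimum, the reductase Tm7sf2 was at 8.29 and 4.92 CPM (-0.65) and the dehydrogenase Hsd17b7 at 5.9 and 6.76 CPM (0.17).

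The 5 fatty acid enzymes summed to 259 CPM at time 1 and 281 CPM at time 2, a log2 ratio of 0.12. Acaca, acetyl-CoA carboxylase, was at 18.5 CPM (18.1 to 18.9) and 24.6 CPM (24.3 to 24.9), a ratio of 0.39. Fasn, fatty acid synthase, was at 63 CPM (62.3 to 63.6) and 75.4 CPM (74.9 to 75.8), a ratio of 0.26. Acly, which makes cytosolic acetyl-CoA for both routes, stood at -0.02, and the stearoyl-CoA desaturases Scd1 and Scd2 at -0.09 and 0.09. Over all filtered cells Scd2 stood at -0.14. None of the 5 reached the limit. Within single clusters the sum of the 5 had ratios on both sides of 0: -0.05 in the Gm9-led (246 and 237 CPM), -0.12 in the Pramel7-led (332 and 305 CPM), -0.13 in the Lhx1-led and -0.15 in the Mgp-led cluster, and 0.09 in the Fgf8-led and 0.04 in the Hand1-led cluster.

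**Figure D1:**
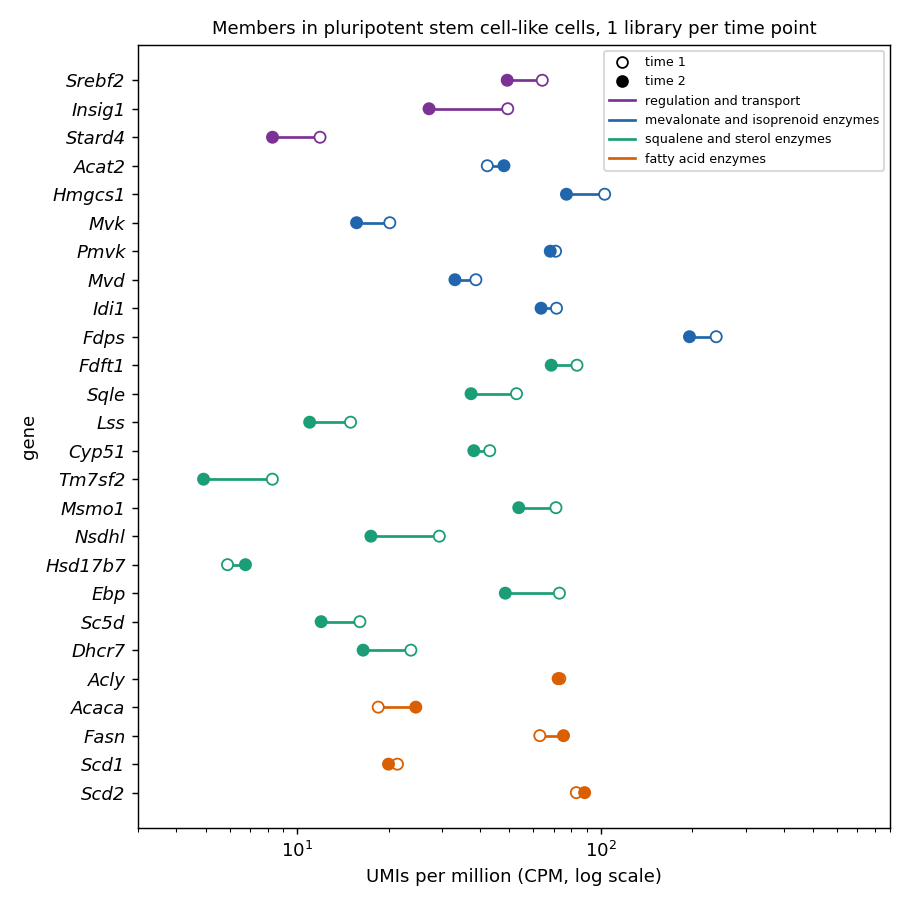
Level of each of the 26 genes in pluripotent stem cell-like cells, in CPM on a log axis, at time 1 (open points) and time 2 (filled points), with 1 library per time point and colours by role. The filled points lie to the left for most sterol genes, with Insig1 at 49.4 and 27.2, and to the right for Acaca and Fasn.

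The size of the shift depended on scaling and on the population. Scaling with edgeR factors (TMM) moves every passage ratio by 0.14 and median-of-ratios factors by 0.18, which takes the summed ratio from -0.24 to -0.10 and -0.06. With either, Acaca passed the limit (0.53 and 0.56) and 2 genes were lower, Insig1 (-0.70 and -0.66) and Nsdhl (-0.58 and -0.55). Ebp did not reach the limit (-0.44 and -0.41). The shares of all genes past the limit were not taken with these factors. Pmvk, Acly and Scd1 lay above 0 with either scaling, from 0.04 to 0.16, and Cyp51 and Idi1 lay at 0.01 with median-of-ratios factors; the sign of no other member turned. Adding the primed epiblast-like cluster, which holds 5884 cells of time 1 and 287 of time 2, takes the summed ratio to -0.51. The lower genes become 13, but no share of all genes was taken for that population. Barcodes under 1000 UMIs, which can hold free RNA, broken cells or small cells, held 2351 CPM (2303 to 2400) of the 26 genes at time 1 and 1552 CPM (1517 to 1588) at time 2. Their Insig1 level was 127 and 51 CPM, and their part in the result was not tested. Markers of primed epiblast summed to 170 CPM in the cells at time 1 and 130 CPM at time 2, and markers of the naive state to 568 and 730 CPM; their part was not tested either.

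Because XX, XO and XY lines were mixed, the passage comparison was repeated within classes of X dosage, each cell's X-linked UMIs over its autosomal UMIs, taken without the 26 genes and divided by the median of the cells with Y-linked UMIs in that library. X-high cells, at a dosage of 1.2 or above and with no UMI of Y-linked genes, were 56.3% of the pluripotent stem cell-like cells at time 1 and 14.7% at time 2, and X-low cells, under that value and likewise without a Y-linked UMI, 29.3% and 72.2%. In X-high cells the summed level was 1340 CPM at time 1 and 1244 CPM at time 2 (-0.11), 0 genes were lower and 0 higher by the limit (9.05% and 6.07% of all genes were) and the median of the 24 was -0.18 against 0.01 for all genes. In X-low cells it was 1462 and 1164 CPM (-0.33), 7 genes were lower and 0 higher (11.7% and 7.69% of all genes were), and the median was -0.39 against -0.02. Those 7 were Insig1 (-0.87), Msmo1 and Dhcr7 (both -0.66), Hmgcs1 and Lss (both -0.60), Fdps (-0.55) and Sqle (-0.50). Whether the ratio differs between the classes was not tested. The fatty acid genes summed higher at time 2 in both, with ratios of 0.17 and 0.09.

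Within X classes, Ebp had ratios above 0. It was at 95.8 CPM at time 1 and 96.2 CPM at time 2 in X-high cells (0.01), and at 35.2 and 39.6 CPM in X-low cells (0.17). Nsdhl was at 35 and 32.8 CPM in X-high cells (-0.09) and at 20.8 and 14.5 CPM in X-low cells (-0.49). Insig1 was at 49.4 and 35.4 CPM in X-high cells (-0.47, short of the limit) and at 47.2 and 25.3 CPM in X-low cells (-0.87). Gains of autosomes were also more frequent at time 2, in 4.51% and 16.8% of X-high cells and in 31.8% and 93.1% of X-low cells. These shares depend on the threshold of the gain call. X-low cells of time 2 without a called gain numbered 1031 at the threshold used, 643 at 1.2 and 5789 at 1.4. Among cells without a called gain the summed ratio was -0.09 in X-high and -0.25 in X-low cells, and Insig1 stood at -0.43 and -0.79. In the former 1 gene was lower and 0 higher, beside 10% and 6.74% of all genes, and in the latter 3 were lower and 0 higher, beside 8.86% and 5.13%.

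Compared directly within each library, X-high cells had more Ebp and Nsdhl than X-low cells. Of all the ratios at time 1, 7 were above 0 and 17 below, with medians of -0.22 for the mevalonate and -0.21 for the sterol enzymes, and at time 2, 12 were above and 11 below. The median of the 24 at time 1 was -0.14 against 0.01 for all genes, and that of the 23 at time 2 was 0.04 against 0.02. X-linked genes are higher in X-high cells by construction. With TMM factors the summed ratio at time 1 was -0.19. At time 1 these 2 of the 24 genes that met the minimum were higher and 0 lower, where 7.56% of all genes were higher and 2.73% lower. At time 2 the same 2 of 23 were higher and 0 lower, where 10.1% were higher and 4.6% lower. Ebp was at 95.8 CPM (94.7 to 96.9) against 35.2 CPM (34.2 to 36.2) at time 1, a log2 ratio of 1.42, and at 96.2 CPM (94.8 to 97.6) against 39.6 CPM (39.1 to 40) at time 2, a ratio of 1.26. Both lie above the upper quartile of the other X-linked genes measured, whose median was 0.77 (quartiles 0.61 to 0.96, 270 genes) at time 1 and 0.80 (0.60 to 1.06, 258 genes) at time 2. Nsdhl had ratios of 0.72 and 1.12, within those quartiles at time 1 and just above them at time 2. Since the X-linked genes set the classes, these values describe the classes.

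The X-linked difference was smaller within a single cluster at time 2. Among Nanos3-led cells (436 X-high and 7124 X-low) Ebp stood at 0.47 and Nsdhl at 0.31, and neither reached the limit. Within the Gm9-led cluster at time 1 (4253 and 2588 cells) they stood at 1.34 and 0.64. The mevalonate enzymes went the other way at time 1, with 535 CPM in X-high and 667 CPM in X-low cells (-0.32), Fdps at 210 and 286 CPM (-0.44). Msmo1, an autosomal sterol enzyme, was at 62 and 86.7 CPM (-0.48). Among cells without a gain at time 1, 2 genes were higher, Ebp (1.34) and Nsdhl (0.75), and 2 lower, Hmgcs1 and Fdps (both -0.51), beside 7.02% and 2.89% of all genes. At time 2 the mevalonate enzymes were at 484 and 501 CPM (-0.05) and Fdps at -0.02. Insig1 was at 49.4 and 47.2 CPM (0.07) at time 1 and at 35.4 and 25.3 CPM (0.47) at time 2. Summed over all 26 genes the ratio was -0.13 at time 1 and 0.10 at time 2; the latter was 0.00 in cells without a gain (2 genes higher and 0 lower, beside 9.58% and 4.34% of all genes), and -0.02 within the Nanos3-led cluster and with TMM factors.

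**Figure D2:**
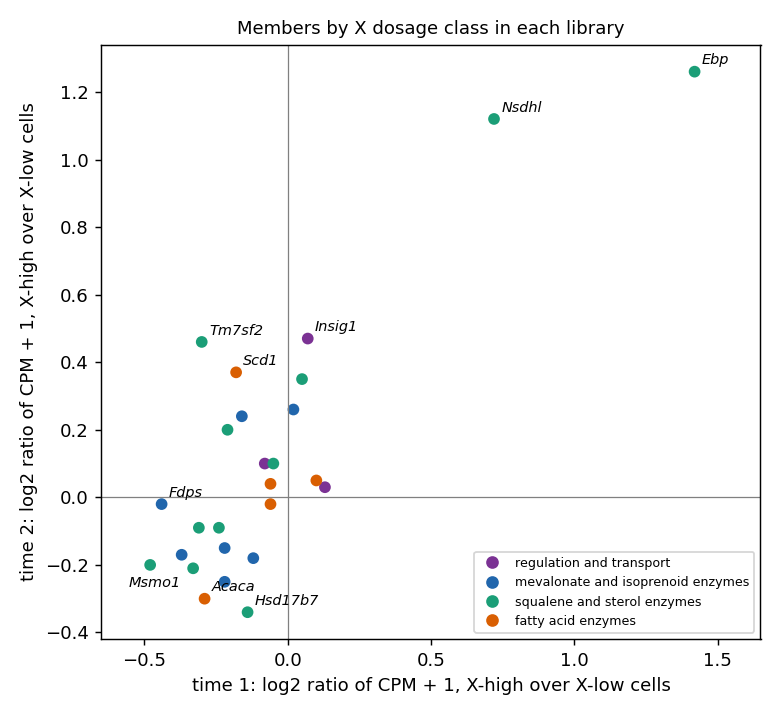
Log2 ratio of CPM plus 1 between X-high and X-low pluripotent stem cell-like cells for each of the 26 genes, at time 1 (horizontal axis) and time 2 (vertical axis), coloured by role. Ebp (1.42 and 1.26) and Nsdhl (0.72 and 1.12), both X-linked, stand apart at the upper right, and all autosomal members lie between -0.48 and 0.47.

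Several members lie on autosomes gained in culture, and these were compared among X-low cells of the same library. With a gain of chromosome 8 alone at time 2 (2952 cells, against 1031 without a gain), 0 of 23 members reached the limit in either direction (0.363% of all genes were higher and 0.552% lower). Msmo1 (chr8:64718139-64733792) was at 64.3 CPM (63.1 to 65.6) against 50.3 CPM (48.7 to 52.1), a ratio of 0.35. Mvd (chr8:122433601-122443422) was at 44.3 against 35.2 CPM, a ratio of 0.33. The median of 435 other chromosome 8 genes was 0.33. The Msmo1 value moved with the threshold of the gain call, from 0.57 at 1.2 to 0.13 at 1.4. At time 1 (671 and 1875 cells) Msmo1 stood at 0.32 and Mvd at 0.19, or 0.32 at a threshold of 1.4, beside a chromosome 8 median of 0.46. The 26 genes together were at 1261 CPM both with and without the gain at time 2, and at 1377 and 1501 CPM at time 1 (-0.12), where 1 gene was lower and 0 higher (2.28% and 2.78% of all genes).

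With a gain of chromosome 1 alone at time 2 (2481 cells), Hsd17b7 (chr1:169949535-169969241) was at 7.59 CPM (7.16 to 8.05) against 6.43 CPM (5.84 to 7.07), a ratio of 0.21 beside a chromosome 1 median of 0.38. The 26 genes together were at 1124 against 1261 CPM with this gain (-0.17), and 21 of 23 ratios were below 0, though 0 of 23 reached the limit (1.29% of all genes were lower by it and 1.71% higher). Fdft1 (chr14:63145150-63179578) was compared between cells with gains of 1 and 14 and cells with a gain of 1, since too few had 14 alone. It was at 75.2 CPM (73.5 to 76.8) against 66 CPM (64.7 to 67.3), a ratio of 0.19 beside a chromosome 14 median of 0.47. In that comparison the 5 fatty acid genes, none on chromosome 1 or 14, summed to 321 against 271 CPM (0.25), and 0 of 23 genes reached the limit (2.58% of all genes were higher and 1.95% lower).

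Across cell states, the 26 genes were highest in the primed and mesendoderm-like cells by summed level. The fibroblast-like cluster was near the stem cells at time 1 (0.03) and under them at time 2 (-0.18). At time 1 the summed level was 2309 CPM (2286 to 2333) in the mesendoderm-like Lhx1-led cluster and 2220 CPM (2215 to 2225) in the primed epiblast-like Fgf8-led cluster. It was 1839 CPM in the trophoblast-like Hand1-led cluster and 1704 CPM in the Notch2-led cluster, which was left unnamed. The Pramel7-led cluster, with 1422 CPM (1414 to 1431), and the Mgp-led cluster, with 1420 CPM (1407 to 1433), did not differ beyond counting error. The Gm9-led cluster had 1387 CPM and the Nanos3-led cluster 1301 CPM.

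At time 2 the order began with the Fgf8-led cluster at 2027 CPM (2003 to 2052) and the Lhx1-led cluster at 1876 CPM (1870 to 1883). The Hand1-led cluster, with 1726 CPM (1704 to 1749), and the Kdr-led cluster, with 1720 CPM (1695 to 1746), overlapped. The endoderm-like Srgn-led cluster had 1483 CPM. The Gm9-led and Pramel7-led clusters, with 1274 CPM (1264 to 1285) and 1263 CPM (1258 to 1269), overlapped as well. The Halr1-led cluster had 1233 CPM, the Nanos3-led cluster 1094 CPM and the Mgp-led cluster 1047 CPM, the lowest. Median depth ranged from 28766 UMIs per cell in the Notch2-led cluster of time 1 to 63067 in the Srgn-led cluster of time 2, and its part in the order was not tested.

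**Figure D3:**
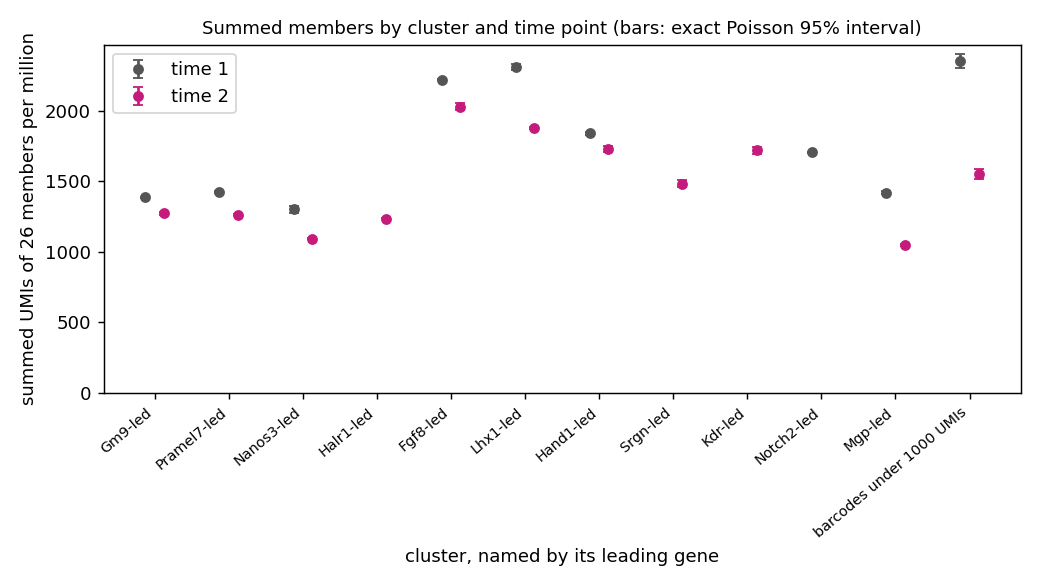
Summed UMIs of the 26 genes in CPM, by cluster, at time 1 (grey) and time 2 (magenta), with exact Poisson 95% intervals as bars; clusters with under 100 cells in a library are not drawn. The Fgf8-led and Lhx1-led clusters lie between 1876 and 2309 and the 4 pluripotent stem cell-like clusters at the left between 1094 and 1422, while barcodes under 1000 UMIs lie at 2351 and 1552.

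In the Fgf8-led cluster, 15 of 25 genes that met the minimum were higher than in the pluripotent stem cell-like cells at time 1, where 12.1% of all genes were, and 1 was lower, where 12.3% were. At time 2 these numbers were 19 of 26 and 1, against 17.1% and 11.8% of all genes. In the Lhx1-led cluster 14 of 26 were higher at time 1 and 15 of 25 at time 2, against 21.1% and 15.9% of all genes; 1 was lower at time 1 (15.6%) and 0 at time 2 (11.8%). In the Notch2-led cluster 3 of 25 were higher (Insig1 at 0.88, Sc5d at 0.59 and Fdps at 0.53) and 0 lower, beside 3.99% and 7.97% of all genes. In the Hand1-led cluster 8 of 24 were higher at time 1 and 12 of 25 at time 2, beside 20.9% and 28.2% of all genes, and 1 was lower at each time (12.7% and 14.8%). At time 2, 11 of 25 were higher and 1 lower in the Kdr-led cluster (24.5% and 15%), and 8 of 25 higher and 0 lower in the Srgn-led cluster (23.7% and 14.7%). Comparisons of clusters within a library share their stem cell reference. Of the 4 roles, the mevalonate enzymes had the highest ratio of summed CPM in the Fgf8-led cluster, with 1053 against 587 CPM at time 1 (0.84) and 914 against 502 CPM at time 2 (0.86). By the median over genes they were highest at time 1 (0.79), but at time 2 regulation (0.89) and the sterol enzymes (0.80) stood above them (0.67). Hmgcs1 was at 213 CPM (211 to 214) there at time 1 against 103 CPM, a ratio of 1.04, and at 196 CPM (188 to 204) against 77.1 CPM at time 2, a ratio of 1.34. Cyp51 was at 97.2 against 43.1 CPM (1.16) and at 108 against 38.2 CPM (1.48), and Scd2 at 185 against 83.1 CPM (1.14) and at 218 against 88.5 CPM (1.29). The Scd2 ratio was larger still in the Lhx1-led cluster at time 1, with 272 CPM and 1.70. Srebf2 was nearer the stem cell level in these clusters, with ratios from 0.14 to 0.27, as were Fdft1 (-0.09 to 0.25) and Acly (-0.02 to 0.29).

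Ebp had ratios under 0 in every one of these clusters but the Srgn-led one, though those of the Notch2-led cluster (-0.37) and, at time 2, the Lhx1-led (-0.46) and Mgp-led clusters (-0.38) did not reach the limit. It was at 30.7 CPM (30 to 31.3) in the Fgf8-led cluster of time 1 against 73.1 CPM, a ratio of -1.23, and at 33.5 CPM in the Hand1-led cluster, a ratio of -1.10. At time 2 the ratios were -0.57 in both, and 0.37 in the Srgn-led cluster. X dosage, with which Ebp moved within the stem cells, was classed only there, so its part in these ratios was not tested. Sc5d, the desaturase late in the route, had ratios from 0.59 to 1.64 in the 11 comparisons of other clusters, the fibroblast-like ones included. In the fibroblast-like cluster 3 of 25 genes were higher and 2 lower at time 1, and 3 of 24 higher and 5 lower at time 2, where 27.5% and 29.6% of all genes were higher and 30.1% and 31.1% lower. At time 1 these were Hsd17b7 (1.75), Sc5d (1.32) and Scd2 (1.00), and Ebp (-0.87) and Dhcr7 (-0.54).

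**Figure D4:**
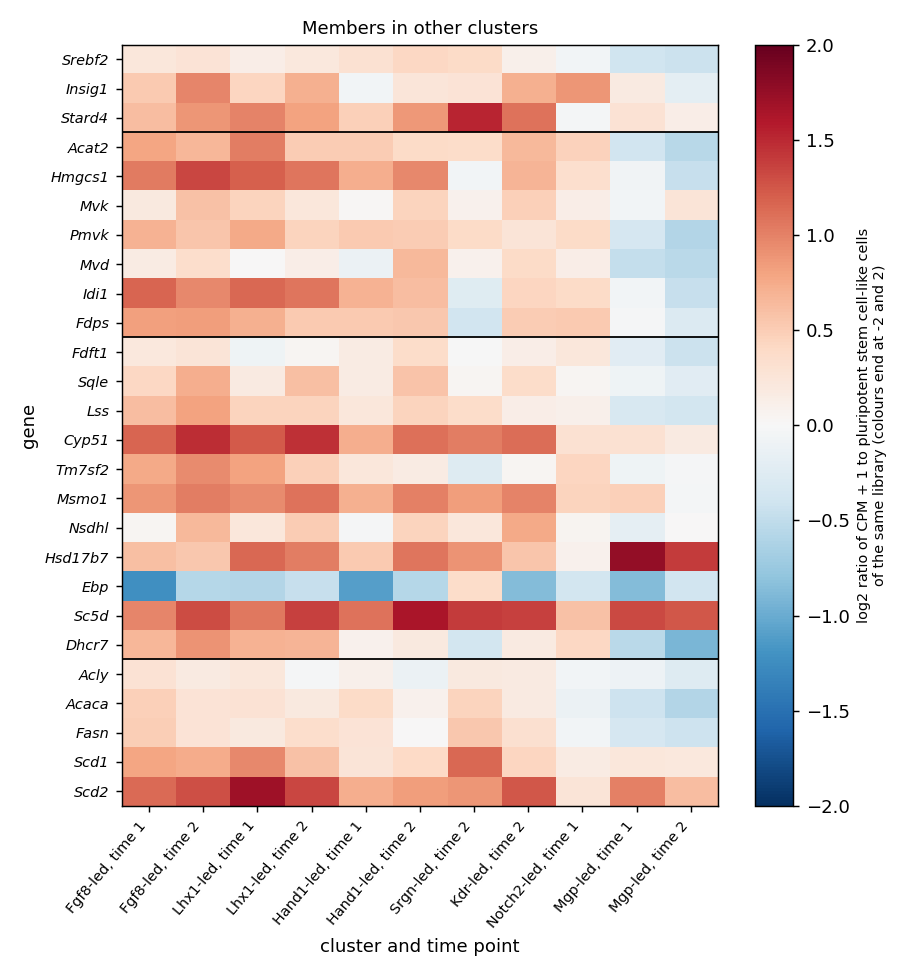
Log2 ratio of CPM plus 1 of each of the 26 genes in each other cluster against the pluripotent stem cell-like cells of the same library, red for higher and blue for lower, with lines between the 4 roles. The Fgf8-led and Lhx1-led columns are red for most genes, Sc5d is red in every column (0.59 to 1.64), Ebp is blue in all but the Srgn-led column, and the Mgp-led columns are mixed.

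Among the pluripotent stem cell-like clusters themselves, Scd2, Mvd, Hmgcs1 and the X-linked Ebp and Nsdhl passed the limit in overlapping comparisons. Each sets 1 cluster against the rest of the class in its library, so they are not independent. At time 1 the Gm9-led and Pramel7-led clusters (8037 and 1115 cells) make up most of each other's reference. At time 2 the Nanos3-led and Halr1-led clusters (8786 and 8912 cells) do. At time 2 the Nanos3-led cluster had 1094 CPM of the 26 genes against 1241 CPM in the other stem cells (-0.18), and 2 of 23 genes were lower beside 3.55% of all genes: Scd2 at 63 against 105 CPM (-0.73) and Nsdhl at 13.4 against 20.2 CPM (-0.56). The Halr1-led cluster, the other large one at time 2, had 1 gene higher beside 2.18% of all genes, Scd2 at 109 against 71.3 CPM (0.61), and 1 lower beside 5.31%, Ebp at 37.4 against 57.7 CPM (-0.61). In the Pramel7-led cluster, which has the naive-state gene Tbx3 among its leading genes, Ebp was at 120 against 65.5 CPM at time 1 (0.86) and at 106 against 41 CPM at time 2 (1.36). Mvd went the other way there, at 26 against 40.9 CPM (-0.63) and at 23.6 against 34.3 CPM (-0.52). In that cluster 3 of 24 genes were higher and 2 lower at time 1 (8.72% and 6.94% of all genes), and 2 of 23 higher and 1 lower at time 2 (11.9% and 8.01%). The 2 lower at time 1 were Mvd and Hmgcs1, the latter at 75.5 CPM in the Pramel7-led cells. In the Gm9-led cluster Mvd was the 1 higher gene at each time, with ratios of 0.57 and 0.56 (5.62% and 10.6% of all genes). Ebp (-0.69) and Scd2 (-0.54) were lower there at time 1 and 0 genes at time 2 (6.8% and 3.98%). The 128 Nanos3-led cells of time 1 had Ebp lower (-0.68) and 0 genes higher (5.29% and 2.17%).

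Passage ratios were also taken within 6 clusters (Gm9-led, Pramel7-led, Fgf8-led, Lhx1-led, Mgp-led and Hand1-led), which share their libraries. The Nanos3-led cluster, with 128 cells at time 1, was not among them; its summed level was 1301 CPM at time 1 and 1094 CPM at time 2, and its Insig1 level 36.9 CPM (32.9 to 41.2) and 23.2 CPM (22.8 to 23.6). The ratios of Insig1 ran from -1.22 to -0.39, those of Dhcr7 from -0.86 to -0.25, of Hmgcs1 from -0.80 to -0.07, of Msmo1 from -0.91 to -0.10 and of Srebf2 from -0.41 to -0.19. Those of Acaca ran from 0.10 to 0.31 and those of Fasn from -0.03 to 0.42. By the limit, 0 genes were lower and 0 higher in the Gm9-led cluster (2.1% and 1.9% of all genes) and in the Fgf8-led cluster (3.07% and 1.63%). In the Pramel7-led cluster 1 was lower, Msmo1, and 0 were higher (5.48% and 2.3%). Of the 6 clusters, the summed level differed most between the libraries in the fibroblast-like Mgp-led cluster. It was 1420 CPM at time 1 and 1047 CPM at time 2 (-0.44). This cluster may hold feeder cells, which were irradiated, so its ratio compares 2 libraries and is not read as a change with passage. There 9 of 25 genes were lower and 0 higher beside 7.05% and 5.18% of all genes, among the lower Insig1 at 56.2 and 23.6 CPM (-1.22), Msmo1 at 98.8 and 52 CPM (-0.91) and Hmgcs1 at 97.9 and 55.9 CPM (-0.80). In this cluster fibroblast markers summed to 4704 and 3984 CPM, pluripotent stem cell markers to 3750 and 2881 CPM, and macrophage markers to 63.9 and 7.39 CPM, and their part in the result was not tested. In the Lhx1-led cluster 6 of 26 were lower and 0 higher beside 14.5% and 7.52% of all genes, with Hmgcs1 at 238 and 163 CPM (-0.55). The content of this cluster differed between the libraries: its mesendoderm markers summed to 938 CPM in 336 cells at time 1 and to 160 CPM in 3094 cells at time 2, primed epiblast markers to 1226 and 703 CPM, and endoderm markers to 169 and 44.4 CPM, so its name rests less firmly on its markers at time 2. The part of these differences was not tested. In the Hand1-led cluster 1 was lower beside 6.16% of all genes (Insig1, -0.54) and 2 were higher beside 5.81% (Hsd17b7, 0.71, and Mvd, 0.54). The content of this cluster differed too: its trophoblast markers summed to 99.1 CPM at time 1 and 349 CPM at time 2, primed epiblast markers to 419 and 258 CPM and pluripotent stem cell markers to 3712 and 2366 CPM. Its fibroblast markers, at 1759 and 1556 CPM, summed higher than the trophoblast markers that name it, and the part of these differences was not tested.

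Other lipid genes were counted in the same passage comparison from lists of fatty acid synthesis and of fatty acid oxidation. By the limit 0 of them were higher, where 8.36% of all genes were, so the count of 0 is near the background. Of the genes of fatty acid synthesis and elongation outside the 26, 5 of 14 that met the minimum were lower (13.4% of all genes were), from Elovl1 at -0.59 and Fads2 at -0.60 through Me1 (-0.69) and the X-linked Acsl4 (-0.83) to Hacd2 (-0.94). Of the fatty acid oxidation genes 2 of 7 were lower, Cpt2 at -0.65 and Acadl at -0.81. The medians of these lists were -0.29 and -0.08, beside -0.03 for all genes. In X-high cells 2 of 14 and 2 of 7 were lower, where 9.05% of all genes were, and the medians were -0.04 and 0.10, beside 0.01 for all genes. In X-low cells 3 of 13 and 1 of 6 were lower, where 11.7% of all genes were, and the medians were -0.26 and -0.06, beside -0.02 for all genes.

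From cell to cell, most of the 26 genes varied together within each library, and Ebp did so least over all pluripotent stem cell-like cells. Each cell was thinned to 10000 UMIs, and each gene was correlated over the pluripotent stem cell-like cells (9372 at time 1, 20846 at time 2) with the summed UMIs of the other members. The cells of a library share its preparation and, after thinning, their depth, and the correlations are a description without a p. Over the 25 members detected in at least 5% of cells of each library, the median Pearson r was 0.185 at time 1 and 0.166 at time 2, against 0.008 and 0.004 for 8292 other genes. Detection of the 25 at time 1 ran from 5.58% of cells for Hsd17b7 to 85% for Fdps. Its part in r, and in the order of the genes, was not tested. In each library 24 of the 25 lay above the 95th percentile of the other genes, which was 0.053 at time 1 and 0.039 at time 2. Without thinning, on scaled UMIs, the medians were 0.369 and 0.361. Within the largest cluster of each library they were 0.190 and 0.150.

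The highest correlations belonged to Msmo1 (0.380 at time 1 and 0.322 at time 2), Fdps (0.348 and 0.289) and Hmgcs1 (0.344 and 0.319). No other gene of the 8292 exceeded Msmo1 in either library. Among the regulators, Insig1 had 0.195 and 0.214 and Srebf2 0.111 and 0.095. The fatty acid enzymes ran from Scd2 (0.276 and 0.223) and Scd1 (0.192 and 0.166) through Fasn (0.131 and 0.111) and Acly (0.102 and 0.089) to Acaca (0.064 and 0.042). Over all these cells Ebp was the exception, with 0.027 and 0.029, exceeded by 1551 other genes at time 1 and by 779 at time 2. Within X-high cells Ebp had 0.079 and 0.074, above the 95th percentiles of other genes there, 0.055 and 0.06. Acaca (0.044 and 0.052) and Hsd17b7 (0.054 and 0.041) were lower than Ebp in X-high cells. Within X-low cells Ebp had 0.069 and 0.017, beside 95th percentiles of 0.055 and 0.038. The promoter of Ebp shown above holds 2 CCAAT boxes, as does that of Idi1, which had 0.286 and 0.259. Whether r goes with these boxes was not tested. The strongest single pair was Hmgcs1 with Msmo1 at time 1, with 0.244.

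Of the 10 genes outside the 26 that followed their sum most closely, by the lower of the 2 libraries, 7 are given here. They were Tuba1a, a tubulin (0.207 and 0.242), Dnmt3b, a DNA methyltransferase (0.143 and 0.131), Ldha, lactate dehydrogenase (0.130 and 0.150), and H2-K1, a class I histocompatibility gene (0.113 and 0.121). Fads2, a fatty acid desaturase, had 0.119 and 0.113, Tpi1, a glycolytic enzyme, 0.112 and 0.154, and Pclaf, a PCNA-associated factor, 0.112 and 0.107. For Ldha the value at time 2 was 0.044 within the Halr1-led cluster.

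**Figure D5:**
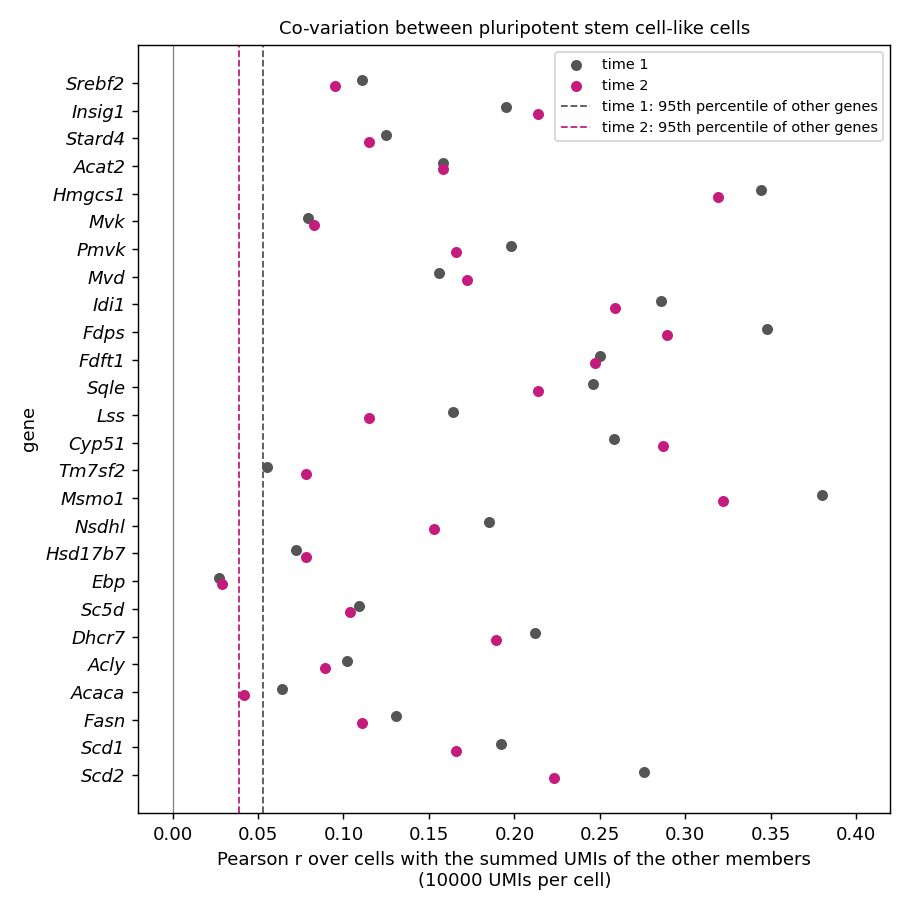
Pearson r over pluripotent stem cell-like cells between each gene and the summed UMIs of the other members at 10000 UMIs per cell, at time 1 (grey) and time 2 (magenta); dashed lines are the 95th percentiles of other genes (0.053 and 0.039). Msmo1 lies farthest right (0.380 and 0.322), and Ebp (0.027 and 0.029) is left of both lines.

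The summed count per thinned cell had a median of 13 UMIs at time 1 and 11 at time 2 in the pluripotent stem cell-like cells, with 5th and 95th percentiles of 5 and 26 at time 1 and of 4 and 23 at time 2. Its variance was 3.2 times its mean at time 1 and 2.79 times at time 2. In the Fgf8-led cluster the medians were 21 and 18 UMIs and the ratios of variance to mean 4.63 and 6.45, and in the Notch2-led cluster of time 1 the median was 17 and the ratio 1.66, the lowest of the clusters measured.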

How the data were processed

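The authors deposited unnormalised UMI count matrices and the file headers name Cell Ranger 6.1.2; bcl2fastq 2.20.0.422 is named in the submitters' processing notes. The 2 libraries held 145288 and 52242 barcodes. Barcodes were kept at or above 0.1 of the 99th percentile of the largest 20000, with 1000 genes or more and no more than 10% of UMIs from mitochondrial genes. Scrublet's automatic limit marked 0 and 1 cells, so the 10% of cells with the highest scores were removed. Cells were clustered in scanpy 1.11.5 (2000 variable autosomal genes without the 26 genes and the lists of other lipid genes, 30 components, 15 neighbours, Leiden resolution 0.5). Clusters were named from marker lists, by a rule set after the clusters were seen: the class with most markers among the top 10 genes and at least 3 markers at 1 CPM, and pluripotent stem cell-like where no other class had one, with at least 500 cells and a median depth of 0.7 to 1.5 times the whole.

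UMIs were summed over cells, scaled to CPM and compared as log2 ratios of CPM plus 1. Intervals are exact Poisson 95% intervals of the sums. A gain was called where a chromosome's share of autosomal UMIs reached 1.3 times its median in the pluripotent stem cell-like cells of time 1, and Y-positive cells had at least 2 UMIs of Y-linked genes. Comparisons needed at least 100 cells a side. Gene coordinates came from a GENCODE annotation of GRCm38, which matched 32158 of 32285 IDs. The alternatives covered the pseudocount, the minimum, the fold limit, scaling (edgeR 4.0.16), the cell filters, the population and the clustering; the scripts were tested on simulated data. The members and lists were chosen with earlier results of these data known. All 26 members are named, with list genes past the limit in the passage comparison and the 10 other genes with the highest lower r. Some genes that this rule names are not reported here.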

Additional observations from a re-analysis of the deposited data

Results flagged for a closer look

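Set pairs of ratios were scanned: X-high over X-low cells at each time, and passage in X-high and X-low cells. Passage in the Gm9-led and Pramel7-led and in the Fgf8-led and Lhx1-led clusters was scanned too. In 3 cases a gene lay on opposite sides of 0, each by at least 0.2 on the log2 scale. Pairs not scanned can differ as well, as Mvd did with passage (0.54 in the Hand1-led and -0.30 in the Mgp-led cluster). With 1 library per time point the differences were not tested. Tm7sf2 had a ratio of X-high to X-low cells of -0.30 at time 1 (7.6 against 9.62 CPM) and of 0.46 at time 2 (6.64 against 4.55 CPM), under the 10 CPM minimum in each. Scd1 had a passage ratio of 0.28 in X-high cells (20.4 CPM at time 1 and 24.9 CPM at time 2) and of -0.28 in X-low cells (23.2 and 18.9 CPM). Scd2 had a passage ratio of 0.24 in the Fgf8-led cluster and of -0.28 in the Lhx1-led cluster.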

How the results depend on the processing

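The summed passage ratio of -0.24 stayed below 0 in every population and scaling run. It was -0.42 over all filtered cells, -0.51 with the primed epiblast-like cluster, -0.43 for cells chosen by marker UMIs, -0.34 with clusters made with the members, -0.33 in X-low and -0.11 in X-high cells, and -0.14 in cells without a gain. It was -0.23 with doublets kept and without the most abundant member, -0.10 with TMM and -0.06 with median-of-ratios factors. In subsets added after seeing the data it was -0.21 without the X-linked members, -0.09 in X-high and -0.25 in X-low cells without a gain. Using clusters made with the members left 4816 cells of time 1 and 19018 of time 2 in the class, against 9372 and 20846. Those clusters also let in the other lipid genes, so the change cannot be assigned to the 26 genes. Of the variable genes, 15 were then lipid genes, 7 of them members. In that clustering 4811 cells of time 1 lay in an H19-led cluster named trophoblast-like, with Gm9 among its leading genes. The 3 lower genes became 5 with a pseudocount of 0.1, 1 at a minimum of 50 CPM, 0 at a limit of 1 and 14 at a limit of 0.25. In those populations, in the order given, they became 11, 13, 12, 7, 7, 0 and 1, and 1 in X-high cells without a gain. The 0 higher genes became 1 with either scaling and 2 at a limit of 0.25. The shares of all genes in X-low cells, X-high cells and X-high cells without a gain are given above. For the other settings no share of all genes was taken, so those counts cannot be set against a background. Ebp was above 0 with passage in X-low (0.17) and X-high cells (0.01), in cells without a gain (0.09) and in X-high (0.08) and X-low cells (0.32) without a gain, and Nsdhl in X-high cells without a gain (0.01). Over 17 alternatives 16 of the 26 passage ratios kept their sign. The sign also turned for Acat2 (-0.15 to 0.35), Scd2 (-0.42 to 0.27), Hsd17b7 (-0.08 to 0.32), Cyp51 (-0.68 to 0.11), Idi1 (-0.69 to 0.01), Pmvk (-0.35 to 0.23), Scd1 (-0.42 to 0.32) and Acly (-0.15 to 0.16).

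The Fgf8-led ratio at time 1 was 0.63 with TMM and 0.64 with doublets kept, and the Lhx1-led ratio at time 2 was 0.57 and 0.63. With clusters made with the members, ratios were taken for classes, which hold other clusters. The primed epiblast-like class at time 1, a Sema6a-led cluster of 6384 cells, stood at 0.57. The mesendoderm-like class at time 2 stood at 0.61. It held 4289 cells of a T-led and 219 of an Lhx1-led cluster, so this value is not that of the 3094 Lhx1-led cells above. The summed ratio of X-high to X-low cells at time 1 was -0.16 without gains (2 genes lower), -0.15 within 1 cluster (1 lower) and -0.19 with TMM (1 lower). At time 2 it was 0.11 at a dosage of 1.4, 0.00 without gains, -0.02 within 1 cluster (0 genes higher) and -0.02 with TMM. At 50 CPM 1 gene was higher at each time. No share of all genes was taken for the counts within 1 cluster, with TMM or at 50 CPM. With chromosome 8 gain at time 2, Msmo1 stood at 0.57 and 0.13 at thresholds of 1.2 and 1.4 and at 0.43 as a share of other autosomes, and Mvd at 0.42 at 1.4; at time 1 Mvd stood at 0.32 at 1.4. The causes were not tested. No paired analysis was possible because each time point has 1 library, and no replicate could be left out. Intervals cover counting error only, and genes under 10 CPM were not counted.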
